A study of Mus musculus with 17 samples.

Results

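The genes described here are 7 costimulatory molecules of T cells: the TNF receptor family members Tnfrsf4 (OX40), Tnfrsf9 (4-1BB), Tnfrsf18 (GITR) and Cd27, the immunoglobulin family receptors Cd28 and Icos, and Cd40lg, which is the ligand of CD40 and not itself a receptor. They were found by gene symbol in the platform annotation, which gave 7 of the 19057 gene symbols and 13 of the 45281 probes of the array: 1 each for Tnfrsf4, Cd28 and Cd40lg, 2 each for Tnfrsf18 and Icos, and 3 each for Tnfrsf9 and Cd27. Every probe is reported. RNA was hybridised to Illumina mouse bead arrays, 17 in all, from CD8 T cells of mice on the C57Bl/6 background that were 2 to 6 months old and carried the OT-I transgene, a T cell receptor specific for an ovalbumin peptide. LSEC-primed cells (4 samples, numbered 4, 7, 14 and 15) had been cultured together with liver sinusoidal endothelial cells, and effector cells (5 samples, 6, 8, 10, 16 and 17) had been activated by dendritic cells. Memory cells (3 samples, 3, 5 and 9) were recovered from spleen 3 months after infection with Listeria monocytogenes expressing ovalbumin, and naive cells (5 samples, 1, 2, 11, 12 and 13) from the spleen with no priming named. LSEC-primed sample 4 carries another cell type label than the 3 others, which are called Tpm, and for effector sample 8 the source is given as spleen and not, as for the 4 others, as the dendritic cell coculture. All 4 groups share the transgenic receptor, so 1 antigen specificity stands for each state. No label says whether samples of a group came from different animals or cultures, and p-values rest on the spread among these samples, part of which may be technical.

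Costimulatory receptors give a T cell a second signal beside that of its antigen receptor. CD28 binds CD80 and CD86 on antigen-presenting cells and, with its relative ICOS, engages phosphoinositide 3-kinase, while the TNF receptor family members are trimerised by their ligands and recruit TRAF adaptors, which lead to NF-kappa-B and to survival genes of the BCL2 family. CD27 and CD28 are known as receptors that resting T cells already carry, whereas OX40, 4-1BB and GITR are known to be induced after stimulation. CD40 ligand is best known from activated CD4 T cells, where it licenses dendritic cells and B cells.

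The labelled cell type was checked first. The CD3 chain genes Cd3d, Cd3e and Cd3g and the CD8 beta chain gene Cd8b1 were above the background level of the array on all 17 arrays, while the probe of Cd8a was above it on 1 LSEC-primed array and on no effector, memory or naive array. The background level was set on each array from the dim side of its own intensities (mode plus 3 SD). The Cd4 probe was above background on 1 effector array and on no LSEC-primed, memory or naive array, and the Foxp3 probe was above it on all 17, with means of 8.36 in LSEC-primed, 8.12 in effector, 8.11 in memory and 8.75 in naive cells on the log2 scale. Several arrays stood apart. Memory samples 5 and 3 were the dimmest, with mean intensities of 96.7 and 140 where the other 15 arrays had 227 to 471, and on memory sample 5 only 15.3% of probes were above background. The Y-linked gene Eif2s3y was above background on LSEC-primed 14, effector 17 and naive 13 and on no other array. The female-specific transcript Xist was above background on every array but these, so these samples read as male and the others as female. On LSEC-primed 14 log2 of the summed intensity of 13 dendritic cell markers was 13.10, against 10.37 to 10.43 on the other LSEC-primed arrays, and that of 11 macrophage markers was 11.94, against 9.57 to 9.79. Of 20 liver endothelial markers, 11 were above background on every LSEC-primed array, 6 on every effector array, 2 on every memory array and 3 on every naive array, and log2 of their summed intensity was 12.23 to 12.74, 11.19 to 11.41, 11.63 to 12.05 and 10.79 to 11.10 in that order. For 8 B cell markers it was 9.18 to 9.38, 9.15 to 9.25, 9.36 to 9.84 and 9.20 to 9.43, and for 8 NK cell markers 9.29 to 10.65, 8.97 to 9.03, 10.24 to 10.96 and 9.21 to 9.90, in the same order. Of the NK cell markers, Klrb1c, Klra4 and Eomes were above background on every memory array, and Ncr1 on no array of any group. Fcgr2b, of the endothelial list, had a log2 difference of 4.55 in memory over naive cells. The globin genes Hba-a1, Hbb-bs and Hbb-bt were above background on every memory and naive array and on no LSEC-primed or effector array. The part of these other transcripts in the differences below was not tested.

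LSEC-primed cells were compared with naive, effector and memory cells, which asks how far these genes mark the state that the series title calls partial memory, and the remaining comparisons were effector with naive, memory with naive and memory with effector cells. Values are log2 of background-corrected, quantile-normalised intensity, differences are log2 with the standard error (SE) of the limma fit, and a difference was called where its adjusted p was under 0.05. All 13 probes passed the filter on dim probes. The fit also called many of the 35237 tested probes, so each count is given with that share. In LSEC-primed against naive cells 4 of the 7 genes were called, Tnfrsf9 and Cd27 higher and Cd28 and Icos lower, by 5 of 13 probes, where 11.1% of all probes were called (6.1% higher and 5.04% lower). Against effector cells 4 genes were called, Cd27 higher and Tnfrsf4, Tnfrsf9 and Tnfrsf18 lower, by 6 probes, where 12.5% were called (6.36% higher and 6.17% lower). Against memory cells only Tnfrsf9 was called, higher by 1 of its 3 probes, a share of member probes not above the 11% of all probes called (6.38% higher and 4.6% lower).

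In effector against naive cells 4 genes were called, Tnfrsf4, Tnfrsf9 and Tnfrsf18 higher and Icos lower, by 6 of 13 probes, where 20.9% of all probes were called (10.4% higher and 10.5% lower). In memory against naive cells 2 genes were called, Tnfrsf4 higher and Icos lower, by 3 probes, where 10.4% were called (4.66% higher and 5.76% lower). In memory against effector cells 4 genes were called, all lower (Tnfrsf4, Tnfrsf9, Tnfrsf18 and Icos), by 7 probes, where 20.2% were called (9.33% higher and 10.8% lower). The arrays of LSEC-primed cells did not overlap those of naive, effector and memory cells for 6, 7 and 3 of the 13 member probes, as held for 12%, 14% and 15.8% of all probes. In effector against naive, memory against naive and memory against effector cells it was 5, 3 and 7 member probes, beside 19.8%, 13.6% and 22.5% of all probes. The comparisons share arrays, so their values stand side by side and are not independent. In bulk RNA, fewer cells with a transcript and less of it per cell cannot be told apart.

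**Figure D1:**
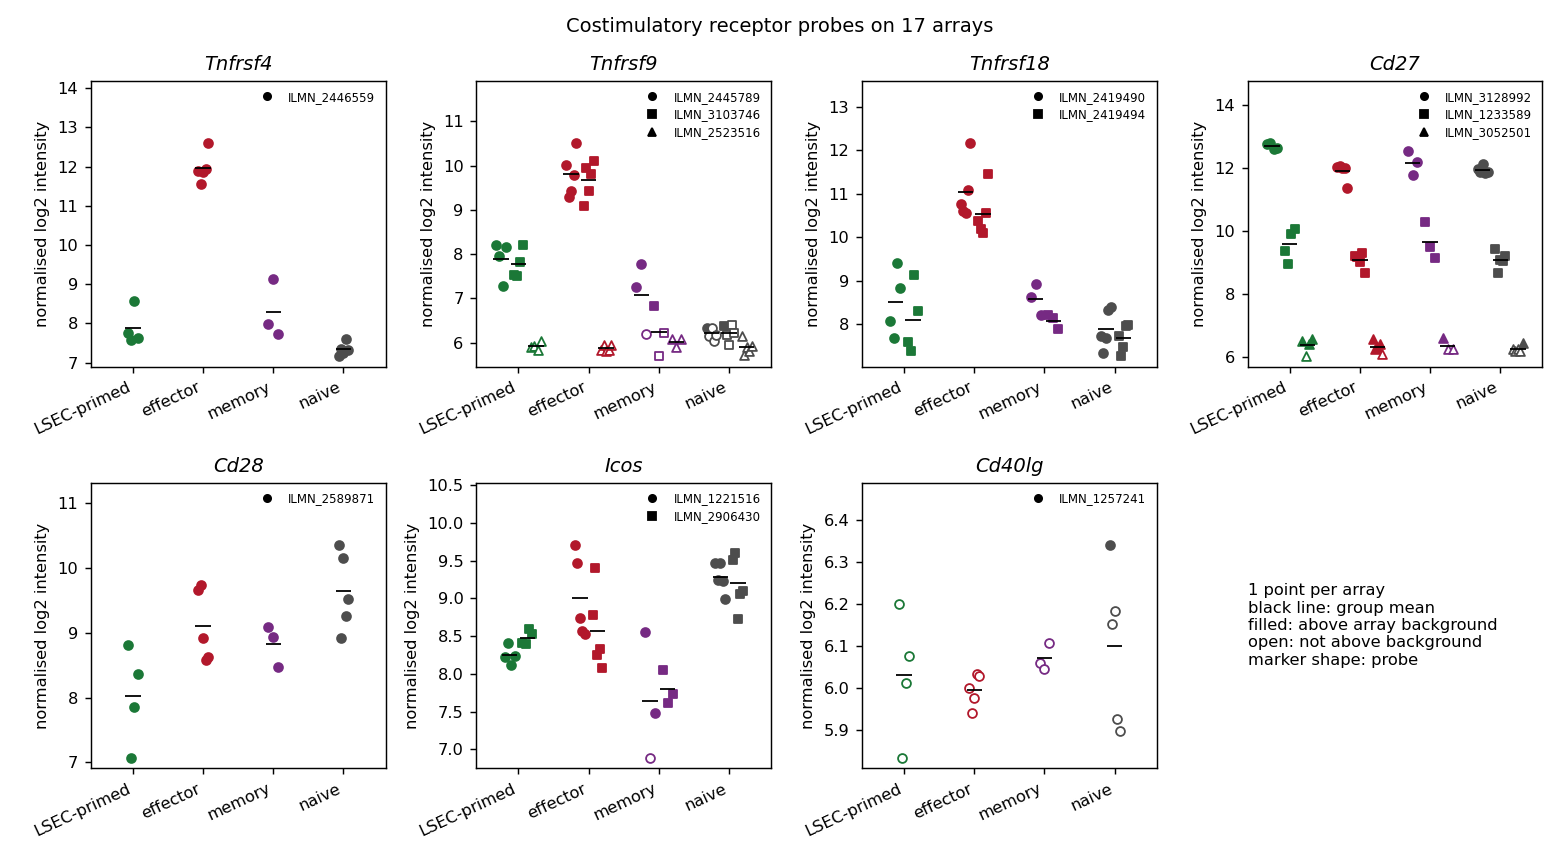
Normalised log2 intensity of each member probe on each of the 17 arrays, with 1 point per array, marker shape by probe, black lines for group means, and open markers for arrays where the probe was not above the background level; each panel has its own vertical axis. The Tnfrsf4, Tnfrsf9 and Tnfrsf18 probes above background lie highest on the 5 effector arrays, the brightest Cd27 probe lies highest on the 4 LSEC-primed arrays, and Cd28 lies lower on every LSEC-primed than on every naive array.

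Among the TNF receptors, Tnfrsf4 had the largest difference. Its probe (ILMN_2446559) read 7.75, 7.58, 8.58 and 7.63 on LSEC-primed arrays 4, 7, 14 and 15, and 11.89, 11.56, 11.87, 11.94 and 12.60 on effector arrays 6, 8, 10, 16 and 17. It read 7.98, 9.13 and 7.74 on memory arrays 3, 5 and 9, and 7.17, 7.35, 7.24, 7.60 and 7.32 on naive arrays 1, 2, 11, 12 and 13. Every effector array lay above every other array, and LSEC-primed 14 and memory 5 were the highest of their groups in these normalised values. On memory 5 the deposited intensity of this probe was instead the lowest of the 17 arrays. In the deposited, non-normalised intensities the same probe ran between 3115 and 10052 on effector arrays, against 197 to 532 on LSEC-primed, 115 to 248 on memory and 148 to 262 on naive arrays. Effector cells were thus 24.8-fold higher than naive cells (log2 difference 4.63, SE 0.25, adjusted p = 6.81e-10 by limma), and LSEC-primed cells differed from effector cells by -4.09 (SE 0.26, adjusted p = 2.23e-08) and memory cells from effector cells by -3.69 (adjusted p = 6.43e-08). LSEC-primed cells had a mean of 7.88 ± 0.47 against 7.34 ± 0.16 in naive cells (SD, n = 4 and 5), a difference of 0.55 with a 95% interval of -0.01 to 1.11 that was not called (adjusted p = 0.266), and without LSEC-primed 14 it was 0.31. The higher value in memory than in naive cells (0.94, adjusted p = 0.0462) was called in 10 of 28 recalculations with other settings, was 0.55 without memory 5 (adjusted p = 0.285) and turned to -0.16 under median scaling.

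Tnfrsf9, whose product supports survival of stimulated CD8 T cells, was higher in LSEC-primed than in naive cells by both of its probes above background. Its probe ILMN_3103746 read 7.53, 7.51, 7.83 and 8.22 on LSEC-primed arrays 4, 7, 14 and 15, and 9.09, 9.94, 9.42, 9.80 and 10.11 on effector arrays 6, 8, 10, 16 and 17. It read 6.82, 5.70 and 6.22 on memory arrays 3, 5 and 9, and 6.37, 6.17, 5.94, 6.39 and 6.22 on naive arrays 1, 2, 11, 12 and 13. No LSEC-primed array overlapped any array of another group, effector arrays lay above them and memory and naive arrays below, and the probe was above background on only 1 of 3 memory and 1 of 5 naive arrays. LSEC-primed cells differed from naive cells by 1.55 (SE 0.23, adjusted p = 0.000155), from effector cells by -1.90 (adjusted p = 1.61e-05) and from memory cells by 1.52 (adjusted p = 0.000796). The last of these was 0.79 and not called under cyclic loess normalisation. Effector cells differed from naive cells by 3.46 (adjusted p = 3.32e-09).

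The other Tnfrsf9 probe above background, ILMN_2445789, gave the same calls against naive and effector cells. It read 8.20, 7.95, 7.28 and 8.15 on LSEC-primed arrays 4, 7, 14 and 15, with LSEC-primed 14 the lowest here, and the group means were 7.90 ± 0.42 in LSEC-primed, 9.80 ± 0.49 in effector, 7.07 ± 0.81 in memory and 6.21 ± 0.13 in naive cells (SD, n = 4, 5, 3 and 5). LSEC-primed cells differed from naive cells by 1.69 (SE 0.28, adjusted p = 0.000614) and from effector cells by -1.91 (adjusted p = 0.000154). Against memory cells this probe gave 0.82, which was not called (adjusted p = 0.129). Memory 3 and 5 read 7.26 and 7.77 and memory 9 read 6.19, and the difference was 1.23 and called without memory 5 (adjusted p = 0.0323) but 0.38 without memory 9 (adjusted p between 0.00266 and 0.455 over 28 recalculations, 3 of them called). The deposited intensities of ILMN_2445789 ran from 92.9 to 111.9 on memory and from 92.8 to 115.6 on naive arrays, so these ranges overlapped before normalisation. The third probe, ILMN_2523516, was not above background on any array and was called in no comparison.

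Tnfrsf18 followed the order of Tnfrsf4, with effector cells above the 3 other groups. Its probe ILMN_2419490 read 8.08, 7.68, 9.42 and 8.84 on LSEC-primed arrays 4, 7, 14 and 15, and 10.77, 10.61, 10.56, 11.10 and 12.16 on effector arrays 6, 8, 10, 16 and 17. It read 8.62, 8.94 and 8.21 on memory arrays 3, 5 and 9, and 7.74, 7.35, 7.68, 8.32 and 8.39 on naive arrays 1, 2, 11, 12 and 13. Every effector array was above every other array, while LSEC-primed, memory and naive arrays overlapped. The difference of effector from naive cells was 3.15 (SE 0.34, adjusted p = 2.11e-06) by this probe and 2.85 (adjusted p = 1.24e-06) by ILMN_2419494. LSEC-primed cells differed from effector cells by -2.54 (adjusted p = 9.46e-05) and -2.43 (adjusted p = 3.49e-05) by the 2 probes. Against naive cells the LSEC-primed differences of 0.61 and 0.42 were not called (adjusted p = 0.409 and 0.565), and without LSEC-primed 14 they were 0.31 and 0.08.

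In the order of levels, therefore, Tnfrsf4 and Tnfrsf18 separated effector cells from the rest, and no difference among LSEC-primed, memory and naive cells was called for them apart from the memory call of Tnfrsf4 named above. Tnfrsf9 had 3 steps, with effector cells highest and LSEC-primed cells between them and naive cells. Single arrays stood high for several of these genes. LSEC-primed 14 was the highest LSEC-primed array for Tnfrsf4 and for both Tnfrsf18 probes but the lowest for Tnfrsf9 by ILMN_2445789. Effector 17 was the highest effector array for Tnfrsf4, for Tnfrsf18 by both probes and for both Tnfrsf9 probes above background, and leaving it out gave effector over naive differences of 4.45 for Tnfrsf4, 3.31 for Tnfrsf9 by ILMN_3103746 and 2.85 for Tnfrsf18 by ILMN_2419490, all still called. Of 13 dendritic cell markers, Batf3 was above background on every effector array (mean 9.02) and on no LSEC-primed, memory or naive array. H2-Ab1, H2-Eb1 and Cd74 were above background on every array of each group. Itgax, Flt3, Zbtb46, Xcr1, Clec9a, Ciita and Cd209a were above background on no effector array. Log2 of the summed intensity of that list was 11.33 to 11.90 on effector and 10.21 to 11.84 on naive arrays.

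**Figure D2:**
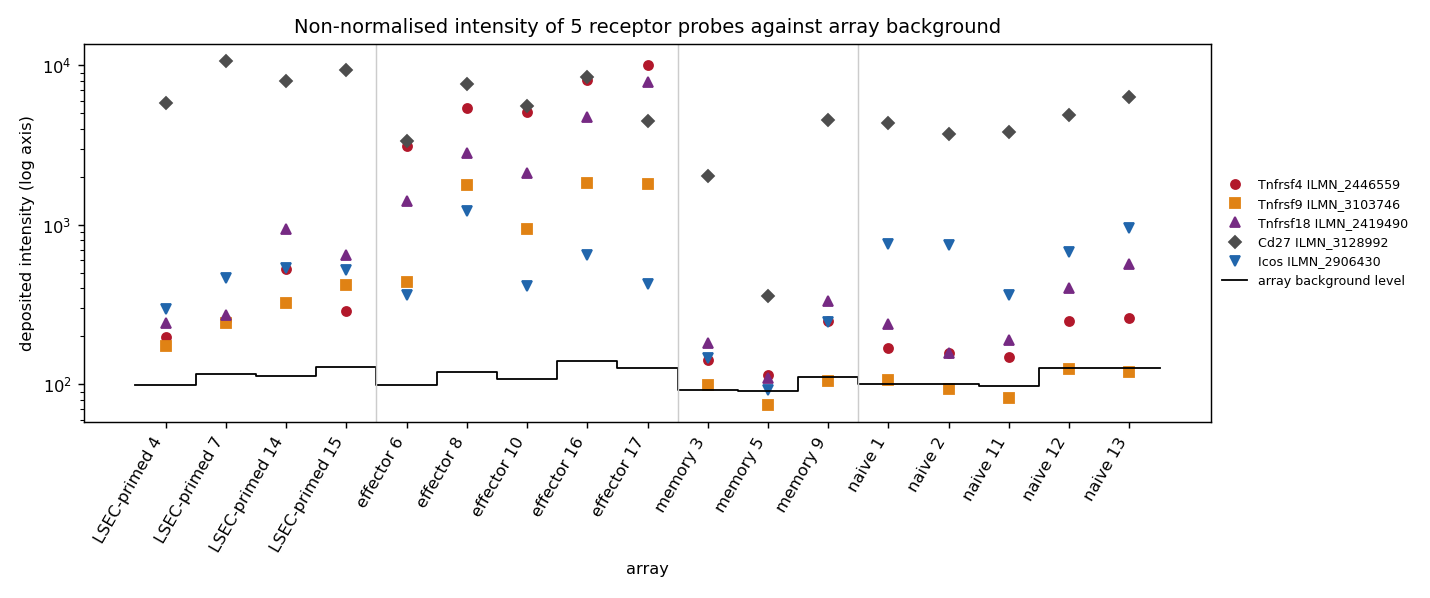
Deposited, non-normalised intensity (log axis) of 1 probe each of Tnfrsf4, Tnfrsf9, Tnfrsf18, Cd27 and Icos on every array, with the background level of the array as a black line and grey lines between the groups. Tnfrsf4 lies between 3115 and 10052 on the 5 effector arrays and does not exceed 532 on any other array, and on memory 5 each of the 5 plotted probes (ILMN_3103746 for Tnfrsf9) lies lower than on any other array.

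The promoter windows of the 3 TNF receptors that were highest in effector cells are shown because these genes were called together in that comparison. They span 250 bases before to 50 bases after the start of the gene, 5′ to 3′ on the gene's strand, from RefSeq on GRCm38.p6. Capitals mark the matches to an NF-kappa-B motif of 10 bases (GGG, any 2 bases, TTTCC) and an AP-1 motif (TGANTCA), both searched on both strands. Tnfrsf9 has 2 annotated starts.
Tnfrsf4, chr4:156013445-156013744, plus strand: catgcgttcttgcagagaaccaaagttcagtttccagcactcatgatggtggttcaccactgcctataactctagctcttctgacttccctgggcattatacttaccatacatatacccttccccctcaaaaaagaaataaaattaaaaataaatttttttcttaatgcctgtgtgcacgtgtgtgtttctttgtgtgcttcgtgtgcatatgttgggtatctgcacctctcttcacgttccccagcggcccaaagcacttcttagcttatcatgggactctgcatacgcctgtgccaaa
Tnfrsf9, chr4:150919905-150920204, plus strand: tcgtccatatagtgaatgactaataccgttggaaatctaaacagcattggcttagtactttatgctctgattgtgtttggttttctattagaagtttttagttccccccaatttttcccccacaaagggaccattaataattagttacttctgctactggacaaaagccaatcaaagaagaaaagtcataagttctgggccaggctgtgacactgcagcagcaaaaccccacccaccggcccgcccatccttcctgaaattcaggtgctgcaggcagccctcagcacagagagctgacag
Tnfrsf9, chr4:150927749-150928048, plus strand: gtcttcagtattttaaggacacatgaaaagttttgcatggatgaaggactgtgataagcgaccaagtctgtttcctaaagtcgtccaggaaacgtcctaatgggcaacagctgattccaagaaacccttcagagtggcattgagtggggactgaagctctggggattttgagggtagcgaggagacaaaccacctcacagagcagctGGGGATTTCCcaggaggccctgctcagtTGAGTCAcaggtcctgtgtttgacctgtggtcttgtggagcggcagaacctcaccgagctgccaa
Tnfrsf18, chr4:156026072-156026371, plus strand: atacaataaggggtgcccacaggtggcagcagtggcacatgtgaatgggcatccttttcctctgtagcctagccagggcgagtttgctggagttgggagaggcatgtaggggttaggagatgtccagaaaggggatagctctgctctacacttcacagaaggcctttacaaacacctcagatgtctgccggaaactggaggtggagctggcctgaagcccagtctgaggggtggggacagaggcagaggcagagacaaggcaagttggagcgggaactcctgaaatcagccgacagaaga
The window of the second Tnfrsf9 start held 1 match to each, GGGGATTTCC beginning 43 bases and TGAGTCA beginning 15 bases before the start. Neither motif was found in the other 3 windows, nor in the window of Cd27 (chr6:125236978-125237277, minus strand). Of all 32851 windows of that length in the table, 1.63% held the NF-kappa-B motif and 7.81% the AP-1 motif, so a match to the second is not rare. The NFAT core GGAAA, which can overlap the NF-kappa-B motif, was in all 5 windows and in 61.3% of the whole table. These matches describe letters and not bound sites, and no factor was measured at these promoters.

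Tnfrsf4 and Tnfrsf18 are next to each other among the protein-coding genes of chromosome 4 in RefSeq. Their neighbours on either side, named for their position and not by their values, are Sdf4 and Ttll10. In effector over naive cells these 2 had log2 differences of 0.03 (adjusted p = 0.945) and -0.11 (adjusted p = 0.556), against 4.63 for Tnfrsf4 and 3.15 for Tnfrsf18. Tnfrsf9 lies elsewhere on the same chromosome, between Park7 (0.91, adjusted p = 7.06e-06) and Per3 (0.03, adjusted p = 0.944). Cd27, on chromosome 6, lies between Tapbpl and Tuba3a. In LSEC-primed over naive cells these had 0.61 and -0.13, neither called (adjusted p = 0.0676 and 0.445). Over effector cells they had 0.74, called, and -0.17, not called (adjusted p = 0.0213 and 0.218). Vamp1, beyond Tapbpl, was called higher in both comparisons (0.52 and 0.73, adjusted p = 0.0443 and 0.00429).

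Cd27, the TNF receptor that naive T cells already carry, was highest in LSEC-primed cells by its brightest probe but not by the second one. The brightest probe (ILMN_3128992) read 12.76, 12.78, 12.58 and 12.63 on LSEC-primed arrays 4, 7, 14 and 15, and 12.01, 12.07, 11.99, 12.00 and 11.37 on effector arrays 6, 8, 10, 16 and 17. It read 12.52, 11.76 and 12.20 on memory arrays 3, 5 and 9, and 11.97, 11.88, 12.11, 11.85 and 11.87 on naive arrays 1, 2, 11, 12 and 13. All 4 LSEC-primed arrays were above all 13 others, and effector and naive arrays overlapped. LSEC-primed cells were higher than naive cells by 0.75 (SE 0.15, adjusted p = 0.00211), or 1.69-fold, and than effector cells by 0.80 (adjusted p = 0.00107). Against memory cells the difference of 0.53 was not called (adjusted p = 0.0526) although the groups did not overlap, as held for 3 of the 13 member probes and 15.8% of all probes in that comparison. Effector and naive cells had means of 11.89 and 11.93, with a 95% interval of the difference from -0.34 to 0.25.

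The LSEC-primed calls of Cd27 (ILMN_3128992) against naive and effector cells were each made in 27 of 28 recalculations but depended on how arrays were scaled. With only a common median per array the differences were 0.85 from naive and 0.60 from effector cells with adjusted p of 0.522 and 0.643, and the memory over effector difference, 0.27 and not called, turned to -1.74 (adjusted p = 0.0298). Against memory cells the LSEC-primed difference ran between 0.10 and 2.34 over 28 recalculations and was called in 6, with 2.34 under median scaling (adjusted p = 0.0156) and 0.70 without memory 3 (adjusted p = 0.0126). The second probe, ILMN_1233589, had means of 9.58 in LSEC-primed, 9.08 in effector, 9.64 in memory and 9.10 in naive cells, so memory cells had the highest mean. Its LSEC-primed differences of 0.48 from naive and -0.06 from memory cells were not called (adjusted p = 0.28 and 0.93). The third, ILMN_3052501, lay near background on all arrays and was called in no comparison.

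**Figure D3:**
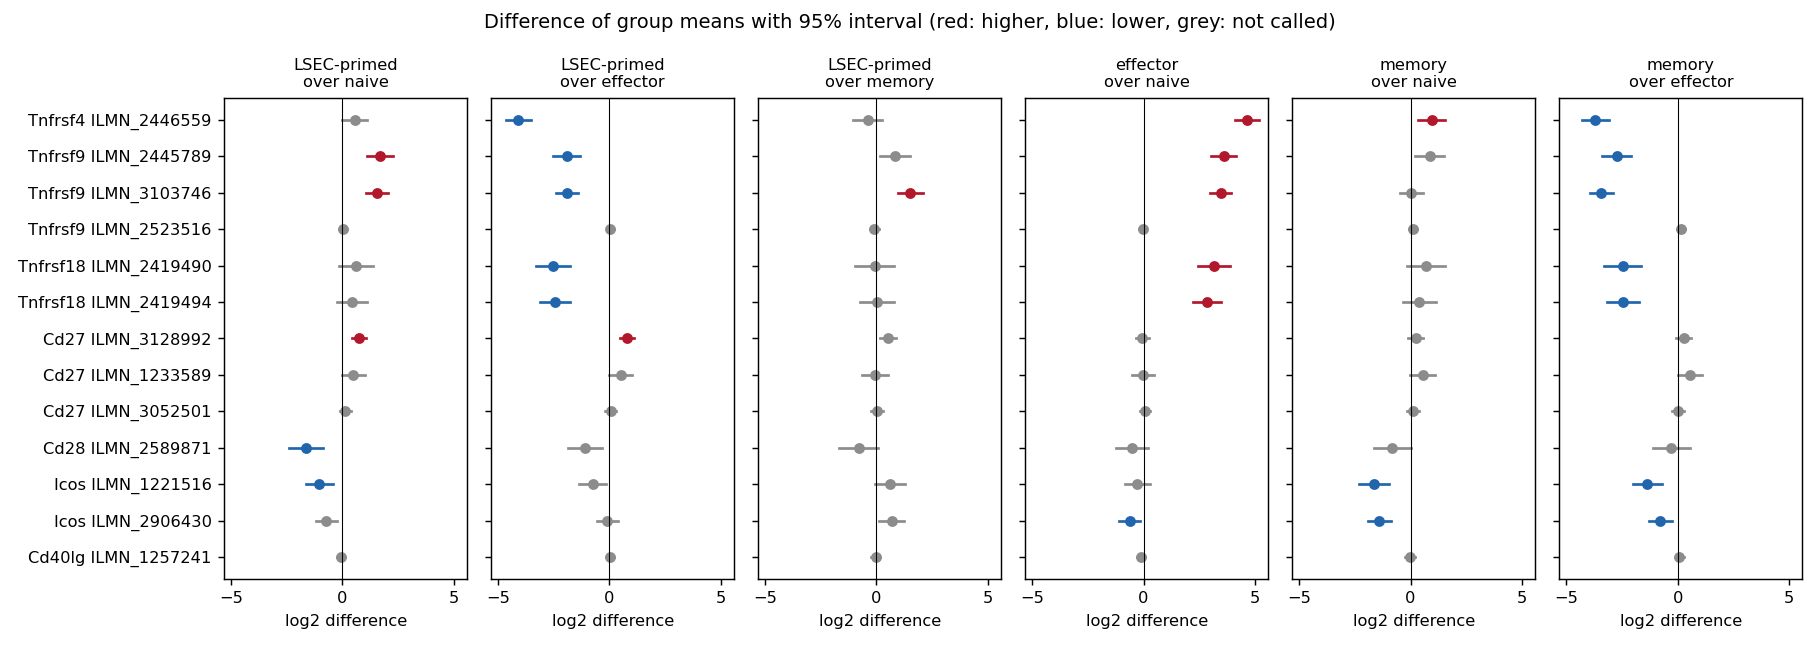
Log2 difference of group means with its 95% interval for every member probe (rows) in each of the 6 comparisons (columns), with red for probes called higher, blue for probes called lower and grey for probes not called. Tnfrsf4, Tnfrsf9 and Tnfrsf18 probes lie at 2.85 to 4.63 in effector over naive cells, apart from the Tnfrsf9 probe that was never above background, and Cd28 and 1 Icos probe are called lower in LSEC-primed than in naive cells.

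Cd28, the receptor of CD80 and CD86, was lower in LSEC-primed cells than in naive cells. Its probe (ILMN_2589871) read 8.82, 7.07, 7.85 and 8.36 on LSEC-primed arrays 4, 7, 14 and 15, and 10.36, 8.92, 10.15, 9.26 and 9.52 on naive arrays 1, 2, 11, 12 and 13. The highest LSEC-primed array was just below the lowest naive array, so the groups did not overlap. The difference was -1.62 (SE 0.36, adjusted p = 0.00569) and was called in 28 of 28 recalculations. Effector cells had a mean of 9.11 ± 0.55 and memory cells of 8.83 ± 0.32 (SD, n = 5 and 3), between the means of LSEC-primed (8.02 ± 0.75, n = 4) and naive cells (9.64 ± 0.60, n = 5). Neither difference from naive cells was called (-0.54, 95% interval -1.25 to 0.18, adjusted p = 0.361, and -0.81, 95% interval -1.64 to 0.01, adjusted p = 0.222). LSEC-primed cells differed from effector cells by -1.08, which was not called (95% interval -1.84 to -0.32, adjusted p = 0.0607), and from memory cells by -0.81, also not called (adjusted p = 0.253).

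Icos, the inducible relative of CD28, was lower in memory than in naive cells by both probes. ILMN_1221516 read 8.22, 8.41, 8.11 and 8.24 on LSEC-primed arrays 4, 7, 14 and 15, and 9.71, 9.47, 8.74, 8.57 and 8.53 on effector arrays 6, 8, 10, 16 and 17. It read 8.56, 6.89 and 7.48 on memory arrays 3, 5 and 9, and 9.48, 9.24, 9.47, 9.23 and 8.99 on naive arrays 1, 2, 11, 12 and 13. All LSEC-primed and memory arrays lay below all naive arrays, while effector arrays ran from above the naive range to below it. The probe was above background on only 2 of 3 memory arrays and on every array of the other groups. Memory cells differed from naive cells by -1.64 (SE 0.31, adjusted p = 0.00188) and LSEC-primed from naive cells by -1.04 (SE 0.28, adjusted p = 0.0236). The memory difference ran between -2.35 and -1.16 over 28 recalculations. Without memory 3 and 5 it was -1.92, a value of the 1 memory array left, whose spread is then assumed to be that of the other groups. The LSEC-primed call was lost in 6 of 28 recalculations, among them those without LSEC-primed 4, 14 or 15 or naive 1 or 11, with values no nearer to 0 than -0.98.

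By ILMN_2906430 the means were 8.48 ± 0.10 in LSEC-primed, 8.57 ± 0.53 in effector, 7.80 ± 0.23 in memory and 9.20 ± 0.36 in naive cells (SD, n = 4, 5, 3 and 5). Memory cells differed from naive cells by -1.40 (adjusted p = 0.00106) and from effector cells by -0.77 (adjusted p = 0.0351), and LSEC-primed from naive cells by -0.72, which was not called (adjusted p = 0.0509). Effector cells differed from naive cells by -0.63 (adjusted p = 0.0463), a call made in 8 of 27 recalculations, where the other probe gave -0.28 (adjusted p = 0.616). The lower value in memory than in effector cells was called by both probes (-1.36, adjusted p = 0.00386, by ILMN_1221516). The ILMN_2906430 call was made in 19 of 27 recalculations. It was lost without memory 5 (-0.71, adjusted p = 0.126), memory 9, effector 6 or effector 8, without memory 3 and 5, with array weights, with only these 2 groups and under cyclic loess (-0.47, adjusted p = 0.312).

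Cd28, Ctla4 and Icos follow each other among the protein-coding genes of chromosome 1. Ctla4, the inhibitory competitor of CD28 for the same ligands, was higher in effector than in naive cells (1.80, adjusted p = 0.0126), where Cd28 and Icos (ILMN_1221516) had -0.54 and -0.28. In LSEC-primed over naive cells its difference of 1.45 was not called (adjusted p = 0.0958), beside -1.62 for Cd28 and -1.04 for Icos. In memory over naive cells it was -1.35 and not called (adjusted p = 0.156), beside -0.81 for Cd28 and -1.64 for Icos.

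Cd40lg was not measured above background in the primed groups. Its probe (ILMN_1257241) read between 5.83 and 6.34 over all 17 arrays and was above background on naive 1 alone. It was called in no comparison, and the data set no level for CD40 ligand in these cells.

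The binding partners of the members (7 ligands, and Cd40 as the receptor of CD40 ligand), listed from textbook knowledge, were mostly dim in these T cell samples. Of these 8 genes 7 were tested, and 1 was higher in LSEC-primed, 1 higher and 1 lower in effector, and none in memory cells against naive cells. Across all genes, taking the brightest probe of each, 15.4% were called in LSEC-primed (9.82% higher and 5.62% lower), 26.4% in effector (14.2% higher and 12.2% lower) and 13.3% in memory cells (6.52% higher and 6.75% lower). Tnfsf9, which encodes the 4-1BB ligand, and Tnfsf18, the GITR ligand, were not above background on any array. Tnfsf4, the OX40 ligand, was above background on 3 of 4 LSEC-primed, 3 of 5 effector and no memory or naive arrays and exceeded naive cells by at least 1.29-fold in LSEC-primed cells (adjusted p = 0.0344), a call lost in 10 of 28 recalculations. Cd80 was above background on 5 of 5 effector and no naive arrays and at least 1.49-fold higher in effector cells (adjusted p = 0.00016), while Cd86 was lower in effector cells with a difference of -0.67 (adjusted p = 0.00663), and under median scaling -0.50 and not called (adjusted p = 0.184). "At least" marks a bound against a group with no array above background.

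**Figure D4:**
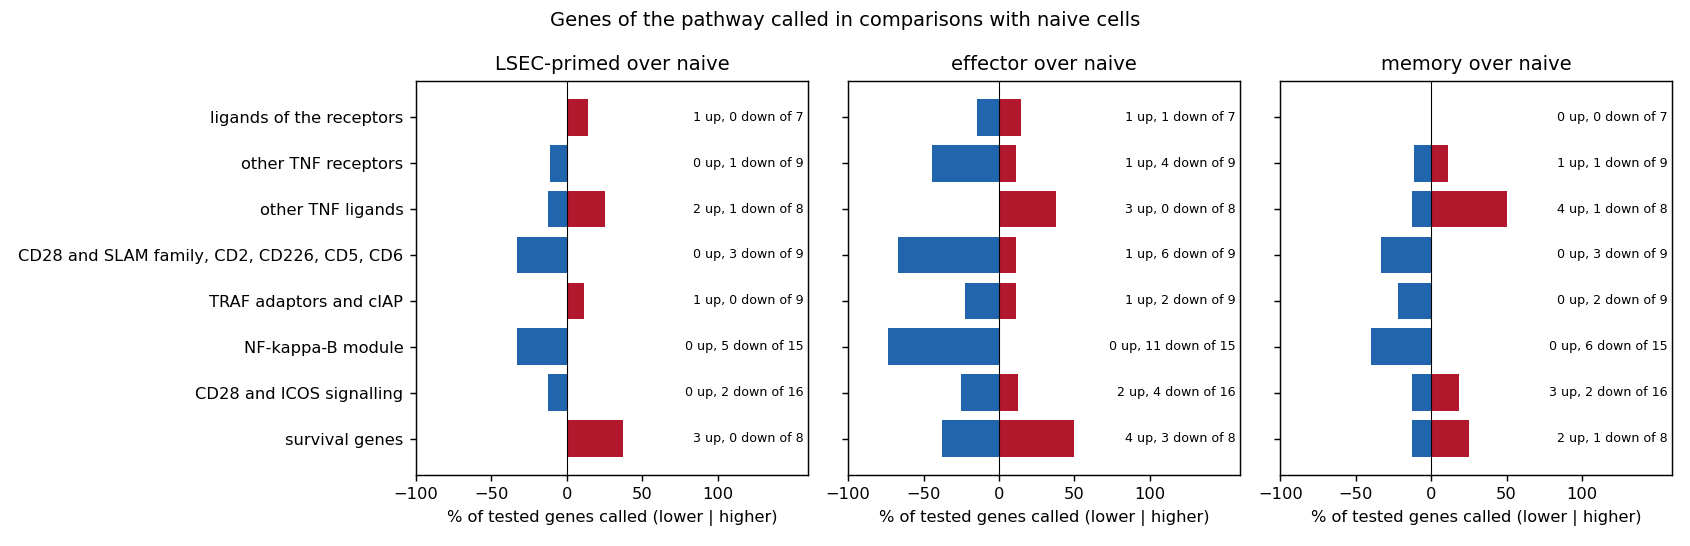
Share of the tested genes of each pathway list that were called higher (red, right) or lower (blue, left) in LSEC-primed, effector and memory cells over naive cells, in percent, with the counts beside the bars. In the NF-kappa-B module 5, 11 and 6 of 15 genes were called lower in the 3 comparisons and none higher. Under median scaling 3, 6 and 9 were lower and 1 was higher in effector cells. In that setting 3.64% of all probes called in memory over naive cells were higher. The other TNF ligands were called higher more often than lower in all 3 comparisons, which under median scaling held in effector cells only. Over all genes 9.82% were higher and 5.62% lower in LSEC-primed, 14.2% and 12.2% in effector, and 6.52% and 6.75% in memory cells.

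In the NF-kappa-B module, through which the TNF receptors signal, more genes were called lower than higher in LSEC-primed, effector and memory cells. The list holds subunits and kinases of the pathway and also its inhibitors, such as Nfkbib and Tnfaip3, both called lower in each of these groups. The counts therefore give no direction of signalling, which was not tested. Of 15 tested genes 5 were lower in LSEC-primed, 11 in effector and 6 in memory cells than in naive cells and none was higher, with median differences of -0.41, -0.78 and -0.63 beside 0.01, 0.00 and 0.01 over all genes. Over all genes 5.62%, 12.2% and 6.75% were called lower. Under median scaling the lower counts of the module were 3, 6 and 9, with 1 gene called higher in effector cells. Of all probes called in that setting, 58.9%, 68.8% and 3.64% were higher in LSEC-primed, effector and memory cells. The memory count of 9 thus stands where nearly all calls were lower. Tnfaip3, the NF-kappa-B inhibitor A20, differed by -2.67 in LSEC-primed (adjusted p = 0.000222) and -2.01 in effector cells (adjusted p = 0.000708). Map3k14, the kinase of the noncanonical pathway that OX40 and CD27 engage, differed by -1.49 in LSEC-primed (adjusted p = 1.97e-07) and -1.33 in memory cells (adjusted p = 1.28e-06), and Nfkbiz, an atypical member of the I-kappa-B family, by -2.34 in effector cells (adjusted p = 9.55e-06). Rel, the c-Rel subunit, was lower in memory cells with a difference of -1.38 (adjusted p = 0.000362), where it was above background on 1 of 3 arrays. Each of these differences was called in 28 of 28 recalculations. The same genes were also called lower in other groups. Map3k14 differed by -1.65 in effector cells (adjusted p = 4.94e-09) and Tnfaip3 by -1.61 in memory cells (adjusted p = 0.0259). Nfkbiz differed by -1.36 in LSEC-primed cells (adjusted p = 0.00633), and Rel by -0.93 in LSEC-primed and -0.78 in effector cells (adjusted p = 0.00417 and 0.00491). Nfkbiz in memory cells was not called (-0.73, adjusted p = 0.2).

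Of 9 TRAF adaptor and cIAP genes, 1 was higher in LSEC-primed cells, 1 higher and 2 lower in effector cells, and 2 lower in memory cells than in naive cells. Over all genes 15.4%, 26.4% and 13.3% were called in LSEC-primed, effector and memory cells, so the LSEC-primed share was not above that of all genes. Traf1, an adaptor of 4-1BB and GITR, was lower in effector cells with a difference of -0.58 (adjusted p = 0.00821), and under median scaling -0.31 and not called (adjusted p = 0.738). Of 8 survival genes 3 were higher in LSEC-primed cells, 4 higher and 3 lower in effector cells, and 2 higher and 1 lower in memory cells, with 2, 3 and 0 higher and 0, 0 and 1 lower under median scaling. Bcl2a1b and Bcl2a1d, whose product A1 is a known NF-kappa-B-dependent survival factor, were higher in LSEC-primed cells by 2.17 (SE 0.26, adjusted p = 2.68e-05) and 2.15 and in effector cells by 1.55 each. These copies are close to identical, so the 2 probes may read the same transcripts and count as 1 observation. Birc5, which also serves cell division, was higher by 3.00 in effector (adjusted p = 1.86e-07) and 1.20 in LSEC-primed cells (adjusted p = 0.00789), the second being 1.34 and not called under median scaling (adjusted p = 0.0601). In memory cells the Bcl2a1b and Bcl2a1d differences of 1.18 and 1.21 turned to -0.13 and -0.27 under median scaling.

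Among 9 other TNF receptors of T cells, 1 was lower in LSEC-primed cells, 4 lower and 1 higher in effector cells, and 1 lower and 1 higher in memory cells than in naive cells. Over all genes 15.4%, 26.4% and 13.3% were called in that order, so the LSEC-primed share was not above that of all genes. Tnfrsf25, the death domain receptor DR3, was lower in LSEC-primed cells with a difference of -1.14 (adjusted p = 5e-05; the same -1.14 under median scaling, adjusted p = 0.187, not called) and in effector cells by -1.61 (adjusted p = 1.69e-07). It was higher in memory cells by 1.36 (adjusted p = 2.36e-05), but that difference was 0.17 under median scaling and 0.73 under cyclic loess and was called under neither. Of 8 other TNF ligands 2 were higher and 1 lower in LSEC-primed, 3 higher in effector, and 4 higher and 1 lower in memory cells. Over all genes 9.82% were higher and 5.62% lower in LSEC-primed, 14.2% and 12.2% in effector, and 6.52% and 6.75% in memory cells. In LSEC-primed cells all genes thus also had more higher than lower calls. Under median scaling 1 ligand was lower in LSEC-primed, 3 were higher in effector, and 1 was higher and 1 lower in memory cells. Tnfsf14, which encodes LIGHT, had means of 6.93 in LSEC-primed, 7.79 in effector, 9.58 in memory and 6.38 in naive cells, with differences over naive cells of 0.55, 1.41 and 3.20 (adjusted p = 0.000916, 5.77e-09 and 6.71e-12). The LSEC-primed difference was 0.61 under median scaling and 0.53 under cyclic loess and called under neither (adjusted p = 0.573 and 0.159), and the memory difference was 1.88 under median scaling and still called. Fasl, the death ligand, was higher in effector cells by 1.95 (adjusted p = 3.64e-07) and in memory cells by 2.54 (adjusted p = 3.74e-07). The memory difference was 1.37 and not called under median scaling (adjusted p = 0.116).

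The CD28 and SLAM family members and related costimulatory molecules, 9 genes, were called lower 3 times in LSEC-primed, 6 times in effector and 3 times in memory cells and higher once, in effector cells (Ctla4). Over all genes 5.62%, 12.2% and 6.75% were called lower. Under median scaling the lower counts of the list were 1, 1 and 5. In that setting only 3.64% of all probes called in memory over naive cells were higher. Slamf6 was lower in effector cells with a difference of -2.34 (adjusted p = 9.05e-05) and had means of 9.30 in LSEC-primed and 9.19 in naive cells. Slamf1 was lower in LSEC-primed cells with a difference of -1.30 (adjusted p = 0.000129), and Btla, an inhibitory receptor that binds the TNF receptor family member HVEM, was lower in memory cells with a difference of -1.74 (adjusted p = 1.06e-06). Also called lower were Slamf6 and Slamf1 in memory cells (-1.69 and -1.03) and Btla in LSEC-primed cells (-0.49). These calls were made in 24, 27 and 19 of 28 recalculations. Of 16 CD28 and ICOS signalling genes 2 were lower in LSEC-primed, 4 lower and 2 higher in effector, and 2 lower and 3 higher in memory cells. Over all genes 15.4%, 26.4% and 13.3% were called, so the LSEC-primed share of the list was not above that of all genes. Grap2, an adaptor that binds CD28, was lower in LSEC-primed cells with a difference of -1.04 (adjusted p = 0.000979), and Bcl10, which links the antigen receptor and CD28 to NF-kappa-B, was lower in memory cells with a difference of -1.40 (adjusted p = 5.87e-07). Grap2 was also lower in effector cells (-0.91, adjusted p = 0.00084). Bcl10 was also lower in LSEC-primed and effector cells (-0.74 in each, adjusted p = 0.000192 and 3.56e-05). That list includes Pdk1, a pyruvate dehydrogenase kinase entered by mistake, which was 1 of the 2 higher genes in effector cells and 1 of the 2 lower genes in memory cells.

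**Figure D5:**
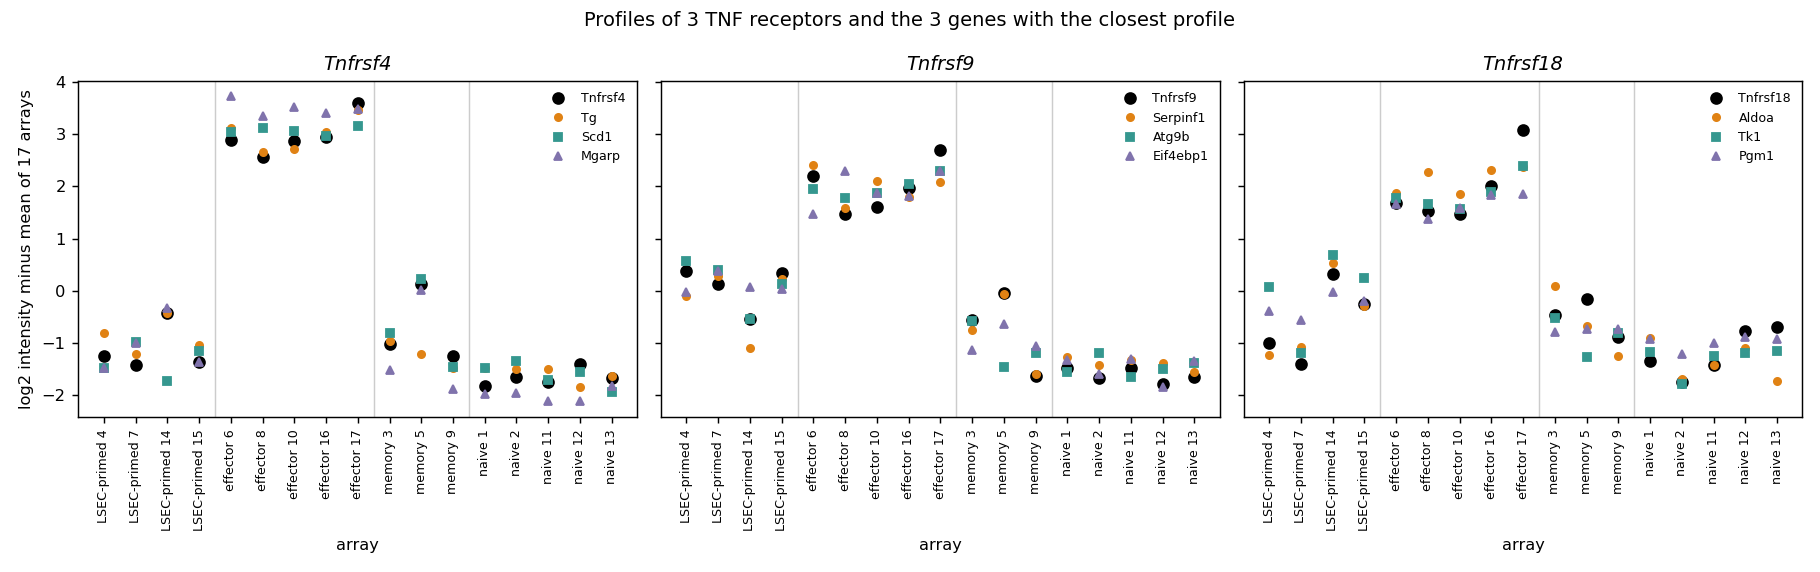
Log2 intensity minus the mean of 17 arrays for Tnfrsf4, Tnfrsf9 and Tnfrsf18 (black) and for the 3 genes with the closest profile to each (coloured), by array, with grey lines between groups. In each panel the 5 effector arrays lie above zero for all 4 genes, and the naive arrays lie below it.

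The genes whose profile over the 17 arrays was closest to each receptor were found as the smallest root mean square (RMS) difference between profiles centred on their own mean, among 6674 genes called in at least 1 comparison. For Tnfrsf4 (profile SD 2.04) these were Tg at an RMS of 0.40, Scd1 at 0.42 and Mgarp at 0.46. Scd1, a fatty acid desaturase, had means of 6.61 in LSEC-primed, 11.01 in effector, 7.26 in memory and 6.34 in naive cells. For Tnfrsf9 (probe ILMN_2445789) they were Serpinf1 at 0.31, Atg9b at 0.43 and Eif4ebp1, a translation repressor, at 0.44, and all 3 had LSEC-primed means between those of effector and naive cells. For Tnfrsf18 they were the glycolytic enzyme gene Aldoa at 0.46, the thymidine kinase gene Tk1 at 0.47 and Pgm1 at 0.48. For Icos they were Cmip at 0.40, Dbf4 at 0.43 and Rasa2 at 0.44, and for Cd28 Smarca5-ps at 0.49, Phf20 at 0.52 and Rasa2 at 0.54. These distances describe these 17 arrays, which fall into 4 groups, and carry no test.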

How the data were processed

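Per the labels, total RNA was amplified to biotin-labelled cRNA and hybridised to Illumina mouse bead arrays, with 1 array per sample. The authors deposited 1 table of non-normalised intensity per probe, without detection p-values or control probes, and a second table whose intensity columns share nearly 1 distribution, which from the values is quantile-normalised and served as an alternative. The tables hold 3 further sample columns that no label names, and these were not used. The software behind the tables is not given in the sources used here. Of 45281 probes, 34885 had 1 gene symbol in the platform annotation, 18 had several and 10378 had none.

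Intensities were background-corrected with normexp (offset 50), quantile-normalised and taken to log2. The 35237 probes above the array median on at least 3 arrays were fitted with limma 3.58.1 in R 4.3.3, with a mean for each of the 4 groups, over 17 arrays with no covariate, with Benjamini-Hochberg adjustment across these probes. The few arrays per group limit the precision. The background level of an array was its modal log2 intensity plus 3 SD of the dimmer side, a definition chosen after the data were seen. A gene of a list was read by its brightest probe. Named from each pathway list were up to 3 called genes with the largest absolute difference per comparison, beside genes in the text named by position. The fit was tested on simulated data. The member genes and all lists were chosen with earlier results of these data known.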

Additional observations from a re-analysis of the deposited data

Results flagged for a closer look

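In the effector group the brightest Cd27 probe (ILMN_3128992) read 11.37 on effector 17, far below the 11.99 to 12.07 of the 4 other effector arrays. Without that array the LSEC-primed over effector difference was 0.67 and still called (adjusted p = 0.00121 by limma). Effector 17 is also the effector array with Eif2s3y above background and the one with the highest Tnfrsf4, Tnfrsf9 and Tnfrsf18, and their part in the Cd27 value was not tested. In the naive group the dim Cd27 probe ILMN_3052501 read 6.45 on naive 13, above the 6.19 to 6.26 of the other naive arrays. Of 39 probes by group that were examined in this way 2 stood apart, and chance marks about 1 in 20.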

How the results depend on the processing

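Of 78 differences (13 probes in 6 comparisons) 28 were called, and 21 of these were called under every alternative that tested them. Of 773 recalculated values of called differences 719 stayed called, 53 did not and 1 turned sign, and of 1333 values of uncalled ones 40 became called. Under median scaling the memory over naive difference of Tnfrsf4 turned to -0.16 and the memory over effector difference of Cd27 (ILMN_3128992) to -1.74. Probes called under median scaling numbered 1327 in LSEC-primed over naive (3924 in the reported fit), 2115 in LSEC-primed over effector (4417) and 4650 in effector over naive cells (7357). In LSEC-primed over memory cells 3870 became 1667 with cyclic loess, 2465 with array weights, 1398 with only the 2 groups compared and 2030 without memory 3 and 5, an alternative chosen after seeing the data. In memory over naive cells 3673 became 2080, 2431, 2427 and 1888 in that order. Member genes called in LSEC-primed over naive cells were 2 under median scaling (4 reported). In LSEC-primed over memory cells (1 reported) they were 3 under median scaling, 0 with cyclic loess and 2 with the stricter filter, with trend and robust eBayes and with only the 2 groups, and 1 to 3 leaving out 1 array (3 without memory 3, and 2 without effector 8 or 17). In memory over naive cells (2 reported) it was 1 with the authors' values, without background correction, without filter, with array weights, with only the 2 groups and without memory 3 and 5, 3 with cyclic loess (Cd27 gained) and with the stricter filter (Tnfrsf9 gained), and 1 to 3 leaving out 1 array (3 without memory 9, and 1 without LSEC-primed 4 or 15, effector 6, 10 or 16, memory 5 or any naive array). The cause of these shifts was not tested. The share of called probes that were higher was 28.6% under median scaling (50.8% reported) in LSEC-primed over effector, 96.6% (58.1%) in LSEC-primed over memory, 68.8% (49.9%) in effector over naive, 3.64% (44.7%) in memory over naive and 4.67% (46.3%) in memory over effector cells, and in memory over naive cells it was 56.3% without memory 3 and 5. No paired analysis was possible because every sample number belongs to a single group. A slide block was not run, since the files name no chips. Cd40lg, 1 Tnfrsf9 probe and 1 Cd27 probe lie at or near background, where no difference could be measured.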
